A study of Solanum lycopersicum with 18 samples.

Results

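The early answer of tomato leaves to salt was compared between 2 plant materials, named Micro-TOM-EX and Micro-TOM in the labels, by asking for each gene whether its change over the first 2 h of NaCl treatment differed between them. The comparison used 12 of the 18 RNA-seq libraries of the study, which are all the libraries of 0 h and 2 h. They were 3 of Micro-TOM-EX leaves after 2 h of NaCl, 3 of Micro-TOM-EX leaves at 0 h, 3 of Micro-TOM leaves after 2 h of NaCl and 3 of Micro-TOM leaves at 0 h. The 8 h libraries of both materials are given only beside these results. Micro-TOM is a small, fast cultivar of tomato that serves as a laboratory model. What sets Micro-TOM-EX apart from it, the salt dose and the age of the plants are not given in the sources used here. All plants grew in pots of soil in a greenhouse under 16 h of light, per the labels. The labels do not tie the 3 libraries of each group to different plants, so the p-values measure only the spread between these samples, which may be technical. Untreated leaves of 2 h were not analysed here, and the effects of salt and of the time of day cannot be told apart within a material.

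Salt first withdraws water from a leaf and later loads it with sodium. Leaves are known to answer within minutes to hours with calcium and reactive oxygen signals, with the hormones abscisic acid, jasmonate and ethylene, and with transcription factors that switch on protective proteins and compatible sugars, while growth and photosynthesis genes are turned down. The quantity compared here was the response difference, the log2 change at 2 h against 0 h in Micro-TOM-EX minus the same change in Micro-TOM, on log2(FPKM + 1). FPKM is the number of fragments divided by transcript length and by the fragments of the whole library. The added 1 understates the changes of genes with low values, and more so in the material with the lower values. It can therefore also enlarge the response difference of such genes. A positive response difference means that the gene rose more, or fell less, in Micro-TOM-EX. Of the 23808 genes in the deposited table, 17826 reached 1 FPKM in at least 3 of the 12 libraries and were tested with limma, with adjusted p below 0.05 as the threshold of a call.

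Single libraries are named by material, hour and number, with EX2r1 for the first library of Micro-TOM-EX at 2 h and MT0r3 for the third of Micro-TOM at 0 h. A library held 15506 to 17343 genes at 1 FPKM or more, and relative depths read from the steps of low FPKM values lay between 0.957 and 1.03. EX0r2 and MT0r2 stood apart from the other libraries of their groups: their log2 values correlated with those of the others at 0.968 to 0.974 in Micro-TOM-EX and at 0.963 to 0.977 in Micro-TOM, where the other pair of each group reached 0.993 in Micro-TOM-EX and 0.991 in Micro-TOM. EX2r1 correlated with the other 2 h libraries of Micro-TOM-EX at 0.968 to 0.982, where the other pair reached 0.991. Leaving out EX0r2 and MT0r2 together gave 998 calls, 706 of them among the 941 of all 12 libraries, and leaving out EX2r1 gave 1160, 827 of them among the 941. Leaf mesophyll markers were abundant in every library. The 32 mesophyll marker genes, of which 31 were tested, summed to 13219 to 34475 FPKM in Micro-TOM-EX at 2 h and 52225 to 55304 at 0 h, against 11629 to 18959 in Micro-TOM at 2 h and 37086 to 51102 at 0 h. In bulk leaf RNA, fewer cells of a type and less RNA per cell cannot be told apart.

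The 2 h response differed between the materials for 941 genes, 5.28% of those tested, with limma. It was higher in Micro-TOM-EX for 395 genes (2.22%) and lower for 546 (3.06%), against a median log2 response difference over all genes of -0.06 and a median SE of 0.24. At an unadjusted p under 0.05 there were 3318 genes. At least 2-fold differences made up 662 of the calls, 274 higher and 388 lower. The calls were sensitive to single libraries: 547 genes passed without MT0r3, 497 without MT2r1, 616 without MT2r3, 559 without EX0r3 and 447 without EX2r3. A filter of 5 FPKM in place of 1 FPKM kept 13932 genes and gave 619 calls, 314 higher and 305 lower. The filter of 1 FPKM was reached only through the Micro-TOM libraries of 2 h by 130 of the 546 lower genes, and only through the Micro-TOM-EX libraries of 2 h by 27 of the 395 higher genes. At 0 h, the deviations of same-numbered libraries from their group means correlated at 0.48, 0.44 and 0.13 between the materials. A replicate block among the 0 h libraries, chosen after seeing the data, gave 1322 calls, 600 higher and 722 lower, 915 of them among the 941.

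Most of the response was common to both materials. Between 2 h and 0 h, 26.8% of the genes tested rose and 49.5% fell in Micro-TOM-EX, against 27.2% that rose and 47.8% that fell in Micro-TOM, and over the tested genes the 2 changes correlated at r = 0.94, a description over genes, which are not independent. Read against that background, the 395 genes with a higher response in Micro-TOM-EX held 144 that rose in both materials, 104 that rose in Micro-TOM-EX without a passing change in Micro-TOM and 37 that rose in Micro-TOM-EX and fell in Micro-TOM. They also held 52 that fell in Micro-TOM without a passing change in Micro-TOM-EX and 58 that fell in both. The 546 genes with a lower response held 174 that rose in both, 167 that rose in Micro-TOM without a passing change in Micro-TOM-EX and 46 that fell in Micro-TOM-EX and rose in Micro-TOM. They also held 71 that fell in Micro-TOM-EX without a passing change in Micro-TOM and 88 that fell in both. The scale of the libraries bears on these classes: over all genes the median log2 change was -0.39 in Micro-TOM-EX and -0.35 in Micro-TOM on FPKM as deposited. After median-ratio scaling, with factors of 1.11 to 1.23 at 0 h and 0.861 to 0.913 at 2 h, 34.7% rose and 39.3% fell in Micro-TOM-EX, against 35.2% that rose and 37.2% that fell in Micro-TOM, and the genes that rose in both were 181 of the 395 and 200 of the 546. The median log2 response difference of the called genes was 1.19 for those higher and -1.20 for those lower.

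**Figure D1:**
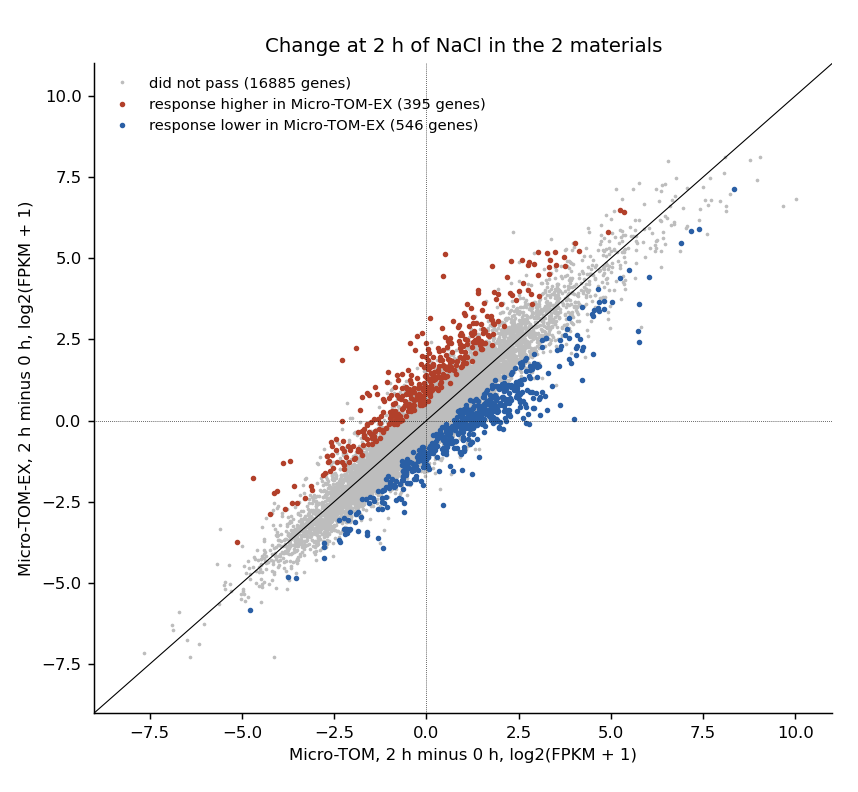
Log2 change of FPKM + 1 at 2 h against 0 h in Micro-TOM-EX (vertical axis) and in Micro-TOM (horizontal axis) for the 17826 genes tested, each a point. The 395 genes with a higher and the 546 with a lower response in Micro-TOM-EX are coloured and lie on either side of the line of equal change.

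The hour at which the materials were apart was counted for the called genes. At 0 h, 3.5% of all genes tested differed between the materials, 1.68% higher and 1.82% lower in Micro-TOM-EX, and at 2 h 11.3%, 5.17% higher and 6.11% lower. Among the 395 genes with a higher response, 153 differed at 0 h and 220 at 2 h: 120 at 0 h alone, 187 at 2 h alone, 33 at both hours and 55 at neither. Among the 546 genes with a lower response, 84 differed at 0 h and 444 at 2 h: 68 at 0 h alone, 428 at 2 h alone, 16 at both and 34 at neither. The same 2 h and 0 h libraries define the response difference, so these counts describe the calls and give them no added support. Every Micro-TOM-EX library of 2 h lay above every Micro-TOM library of 2 h for 303 of the 395 higher genes, where 16.2% of all tested genes showed that order. Every Micro-TOM-EX library of 2 h lay below every Micro-TOM library of 2 h for 485 of the 546 lower genes, where 16.8% of all tested genes did. The lower genes were faint by their median level, which was highest in Micro-TOM at 2 h. The median of their mean levels was 2.22 FPKM in Micro-TOM-EX at 2 h and 3.35 at 0 h, against 6.60 in Micro-TOM at 2 h and 2.29 at 0 h. For the higher genes these medians were 35.0 FPKM in Micro-TOM-EX at 2 h and 13.7 at 0 h, against 18.8 in Micro-TOM at 2 h and 22.8 at 0 h.

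The largest response difference in favour of Micro-TOM-EX belonged to a STAY-GREEN-like gene. LOC101258237 (chromosome 12, 62426594 to 62428948) codes for a chloroplast protein of the family whose founding members start chlorophyll breakdown in ageing leaves by taking magnesium out of chlorophyll a. Its level was 44.6, 52.9 and 48 FPKM in Micro-TOM-EX at 2 h and 0.06, 1.6 and 0 at 0 h, against 0.43, 0.49 and 0.37 in Micro-TOM at 2 h and 0, 0 and 0 at 0 h. Micro-TOM-EX at 2 h stood far above the other groups with no overlap. Micro-TOM stayed at 0.49 FPKM or less and had no passing change on the scale used here. The log2 response difference was 4.62 ± 0.40 (SE, adjusted p = 0.000199). The log2 changes deposited by the authors were 5.38 in Micro-TOM-EX and 4.74 in Micro-TOM, both with the authors' q-value below 0.05. On that scale both materials rose, in the same order but with a far smaller gap, so the size of the difference depended on the scale. No other gene of chlorophyll and carotenoid metabolism was called among the 38 tested, nor either of the other STAY-GREEN genes.

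A pair of cellulose synthase-like genes followed. The E6 member LOC101268453 (chromosome 12, 5755034 to 5760046), of a superfamily of glycan synthases, had 51.4, 42.1 and 39.9 FPKM in Micro-TOM-EX at 2 h and 9.18, 8.72 and 7.87 at 0 h, against 0.69, 0.63 and 0.83 in Micro-TOM at 2 h and 5.63, 5.85 and 4.79 at 0 h. Its 2 h level was above its 0 h level in every library of Micro-TOM-EX and below it in every library of Micro-TOM, and the log2 response difference was 4.14 ± 0.18 (SE, adjusted p = 9.86e-07). The D3 member LOC101247596 (chromosome 3, 59400701 to 59406514), from the branch that root hair growth needs in Arabidopsis, had 24.8, 33 and 28.4 FPKM in Micro-TOM-EX at 2 h and 7.29, 10.2 and 4.7 at 0 h, against 17.7, 18.1 and 21.3 in Micro-TOM at 2 h and 36.3, 236 and 102 at 0 h. It rose in Micro-TOM-EX and fell in Micro-TOM, whose 0 h libraries were high and scattered, MT0r2 highest; the log2 response difference was 4.15 ± 0.70 (SE, adjusted p = 0.00652). Among the 10 cellulose synthase-like genes tested, 2 were higher and 1 was lower.

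A feruloyltransferase-like gene, a peroxidase and an O-methyltransferase, which make or link phenolics of the cell wall, had a higher response in Micro-TOM-EX. Their classes as lists were near the share of all genes: phenylpropanoid and flavonoid enzymes held 2 higher and 1 lower of 71, with a median log2 response difference of -0.07, and class III peroxidases 1 higher and none lower of 26, with a median of -0.24. The tyramine N-feruloyltransferase-like gene LOC101266542 (chromosome 8, 57841656 to 57842614), an enzyme type that couples phenolic acids to amines in wounded and infected tissue, had 255, 126 and 199 FPKM in Micro-TOM-EX at 2 h and 5.89, 7.61 and 4.39 at 0 h, against 44.9, 59.6 and 81.5 in Micro-TOM at 2 h and 11, 29.5 and 14.9 at 0 h. Both materials rose, the 2 h libraries did not overlap, and the log2 response difference was 3.0 ± 0.50 (SE, adjusted p = 0.00598). The lignin-forming anionic peroxidase LOC101246783 (chromosome 11, 9597040 to 9598493), a wall enzyme that joins lignin units, had 95.7, 41.4 and 81 FPKM in Micro-TOM-EX at 2 h and 17.4, 9.24 and 11.8 at 0 h, against 34.5, 32.6 and 44.1 in Micro-TOM at 2 h and 50.7, 61.8 and 40.9 at 0 h. At 0 h it was lower in every Micro-TOM-EX library than in every Micro-TOM library, at 2 h the ranges overlapped, and the log2 response difference was 2.82 ± 0.42 (SE, adjusted p = 0.00356). The caffeoyl-CoA O-methyltransferase LOC101265977 (chromosome 2, 54162187 to 54174096), which methylates lignin precursors, had 213, 85.8 and 173 FPKM in Micro-TOM-EX at 2 h and 59.5, 44.9 and 52.1 at 0 h, against 55, 48.4 and 59.2 in Micro-TOM at 2 h and 93, 159 and 98.1 at 0 h. It rose in Micro-TOM-EX and fell in Micro-TOM, with a log2 response difference of 2.54 ± 0.42 (SE, adjusted p = 0.00581). It overlaps LOC101265690, itself called higher. The strand use of the counting is not stated, so their reads may not have been told apart. LOC101265977 was chosen after its values were seen.

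Other enzymes among the 12 largest differences were a GDSL esterase/lipase, a norcoclaurine synthase-like protein and a dioxygenase. The GDSL gene LOC101257443, from a family of lipid hydrolases, had 252, 372 and 339 FPKM in Micro-TOM-EX at 2 h and 8.07, 12.4 and 8.79 at 0 h, against 204, 233 and 204 in Micro-TOM at 2 h and 31.8, 54.6 and 45.2 at 0 h. Both materials rose, at 0 h every Micro-TOM-EX library was below every Micro-TOM library, and the log2 response difference was 2.62 ± 0.30 (SE, adjusted p = 0.000827). The 2-oxoglutarate-dependent dioxygenase LOC101244810, annotated as deacetoxyvindoline 4-hydroxylase after an alkaloid enzyme of periwinkle, had 20.8, 44.6 and 35.1 FPKM in Micro-TOM-EX at 2 h and 0.28, 0.7 and 0.55 at 0 h, against 0.37, 0.42 and 0.52 in Micro-TOM at 2 h and 0, 0.09 and 0.05 at 0 h. Micro-TOM stayed under 1 FPKM in all 6 libraries, and the log2 response difference was 4.0 ± 0.32 (SE, adjusted p = 0.000124). LOC101262431, named for S-norcoclaurine synthase, had 13.1, 3.96 and 7.64 FPKM in Micro-TOM-EX at 2 h and 0.54, 0.09 and 0.35 at 0 h, against 0.09, 0.27 and 0.36 in Micro-TOM at 2 h and 0.36, 0.35 and 0.35 at 0 h. It passed 1 FPKM only in Micro-TOM-EX at 2 h among these 12 libraries, with a log2 response difference of 2.82 ± 0.42 (SE, adjusted p = 0.00345). The 21 kDa protein-like gene LOC101248653 was high at 0 h and fell in both materials, with 64.6, 82.2 and 85.3 FPKM in Micro-TOM-EX at 2 h and 373, 167 and 287 at 0 h, against 22.3, 21.8 and 24.9 in Micro-TOM at 2 h and 794, 498 and 603 at 0 h. The fall was smaller in Micro-TOM-EX, with no overlap at 2 h, and the log2 response difference was 2.94 ± 0.36 (SE, adjusted p = 0.00139). It overlaps another gene, LOC101248367, which was not called.

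A ubiquitin ligase gene of defence and receptor-like kinase genes were among the calls. CMPG1 (chromosome 1, 137836 to 139275), a ubiquitin ligase that tomato and tobacco need for cell death after recognition of a fungal effector, had 25.9, 40.5 and 38.8 FPKM in Micro-TOM-EX at 2 h and 4.24, 2.0 and 3.06 at 0 h, against 0.91, 0.91 and 0.83 in Micro-TOM at 2 h and 0.33, 2.63 and 0.16 at 0 h. Micro-TOM-EX at 2 h stood above all other libraries, and the log2 response difference was 3.06 ± 0.52 (SE, adjusted p = 0.00669). The receptor-like kinase LOC101264083, of a family with ligand-binding domains outside the cell, had 15.8, 14 and 24.4 FPKM in Micro-TOM-EX at 2 h and 1.55, 2.49 and 2.24 at 0 h, against 7.4, 8.23 and 7.1 in Micro-TOM at 2 h and 5.38, 23.7 and 5.76 at 0 h. MT0r2 was far above the other 0 h libraries of Micro-TOM, and the log2 response difference was 2.85 ± 0.59 (SE, adjusted p = 0.0181). The leucine-rich repeat receptor kinase LOC101255316 had 50.3, 55.9 and 70.1 FPKM in Micro-TOM-EX at 2 h and 11.5, 10.3 and 12.9 at 0 h, against 38.6, 37.9 and 35.1 in Micro-TOM at 2 h and 20.9, 40.7 and 30.6 at 0 h. Its rise passed in Micro-TOM-EX alone, and the log2 response difference was 1.93 ± 0.29 (SE, adjusted p = 0.00351). The log2 changes deposited by the authors were 2.90 in Micro-TOM-EX and 0.86 in Micro-TOM, both with the authors' q-value below 0.05. The call of LOC101264083 ended without MT2r1 or without EX2r3 (adjusted p = 0.0502 to 0.0576). The call of CMPG1 ended with a pseudocount of 0.1 (adjusted p = 0.115). Over the whole list of receptor-like kinases, 20 of 233 were higher (8.58%) and 9 lower (3.86%), against 2.22% and 3.06% of all genes tested. The median log2 response difference was 0.03, and calls went both ways. Of those 20, 12 already differed between the materials at 0 h, against 7 at 2 h. The 20 became 11 without MT0r3, 10 without MT2r1, 13 without MT2r2, 13 without MT2r3, 11 without EX0r3 and 7 without EX2r3; the 9 became 5 without MT0r3, MT2r1 or MT2r3 and 2 without EX2r3.

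Calcium entry and calcium sensing genes were among those that rose more, or fell less, in Micro-TOM-EX. The cyclic nucleotide-gated channel gene LOC101244669 (chromosome 5, 60461514 to 60467090), of a family that lets calcium into plant cells, had 22.4, 10.2 and 19 FPKM in Micro-TOM-EX at 2 h and 0.35, 0.49 and 0.5 at 0 h, against 6.35, 5.96 and 7.17 in Micro-TOM at 2 h and 1.52, 4.73 and 1.91 at 0 h. It was below the Micro-TOM libraries at 0 h and above them at 2 h, and the log2 response difference was 2.48 ± 0.43 (SE, adjusted p = 0.0076). Its neighbour LOC101250508, another channel of the same family, had 14.8, 9.19 and 13.1 FPKM in Micro-TOM-EX at 2 h and 2.48, 1.47 and 1.97 at 0 h, against 1.77, 2.52 and 2.03 in Micro-TOM at 2 h and 1.16, 1.05 and 1.58 at 0 h. Only Micro-TOM-EX at 2 h exceeded 3 FPKM, and the log2 response difference was 1.70 ± 0.27 (SE, adjusted p = 0.00506). Of the 14 channel genes of this family tested, 3 were higher and none lower, against 2.22% and 3.06% of all genes tested. The median log2 response difference of the 14 was 0.16. This family was counted after values were seen, so the count is a description. The calmodulin-binding protein LOC101265748 had 27.5, 44.7 and 47.5 FPKM in Micro-TOM-EX at 2 h and 2.4, 0.77 and 1.49 at 0 h, against 9.4, 13.7 and 11.4 in Micro-TOM at 2 h and 2.4, 8.64 and 2.16 at 0 h, a rise in both materials with a log2 response difference of 2.62 ± 0.56 (SE, adjusted p = 0.0204). The calmodulin-like sensor LOC101257927, named CML19, fell in both, with 14.6, 21.2 and 14.2 FPKM in Micro-TOM-EX at 2 h and 59, 46.4 and 26.8 at 0 h, against 9.43, 6.17 and 13.4 in Micro-TOM at 2 h and 154, 186 and 119.7 at 0 h. The fall was smaller in Micro-TOM-EX, where the 0 h level was also lower; the log2 response difference was 2.58 ± 0.44 (SE, adjusted p = 0.00652). LOC101250262, named CML36, had 188, 224 and 244 FPKM in Micro-TOM-EX at 2 h and 231, 237 and 228 at 0 h, against 120.0, 151 and 144 in Micro-TOM at 2 h and 275, 289 and 269 at 0 h. It fell in Micro-TOM alone, and the log2 response difference was 0.91 ± 0.17 (SE, adjusted p = 0.0124). The call of LOC101265748 ended without MT2r1 or without EX2r3 (adjusted p = 0.0612 to 0.0638). Of the 33 calmodulin-like genes tested 5 were higher and none lower, a family chosen after values were seen, with a median log2 response difference of 0.19. The 5 became 3 without MT0r3, MT2r2, EX0r1 or EX0r3 and 2 without MT2r1 or EX2r3. The broader list of calcium sensors and regulated kinases held 7 higher (5.69%) and 1 lower (0.813%) of 123, against 2.22% and 3.06% of all genes tested. The 7 became 4 without MT0r3, MT2r3 or EX0r1, 3 without MT2r2 or EX0r3 and 2 without MT2r1 or EX2r3. LOC101244669 and LOC101250508 were chosen after their values were seen.

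An NADPH oxidase gene, an inositol phosphatase gene, a jasmonate synthesis gene and a lipoxygenase gene were also higher in their response. Wfi1 (chromosome 3, 66972887 to 66978633), an NADPH oxidase that makes superoxide at the cell surface, had 169, 122 and 154 FPKM in Micro-TOM-EX at 2 h and 86.5, 82.5 and 78 at 0 h, against 86.7, 76.1 and 95.8 in Micro-TOM at 2 h and 206, 237 and 219 at 0 h. At 0 h every Micro-TOM-EX library was below every Micro-TOM library, and at 2 h the order was the reverse; the log2 response difference was 2.18 ± 0.19 (SE, adjusted p = 0.000199). The inositol-1,4,5-triphosphate phosphatase 5PT1, which ends a calcium-releasing signal, fell in both materials, with 15.6, 15.5 and 14.5 FPKM in Micro-TOM-EX at 2 h and 31.4, 52.5 and 31.1 at 0 h, against 13.9, 10.1 and 11.6 in Micro-TOM at 2 h and 108, 246 and 173 at 0 h. Its 2 h levels lay close together without overlap and its 0 h levels far apart, and the log2 response difference was 2.47 ± 0.38 (SE, adjusted p = 0.00446). The gene opr3 (chromosome 7, 2549366 to 2553732), whose product 12-oxophytodienoate reductase carries out a late step of jasmonate synthesis, had 367, 392 and 339 FPKM in Micro-TOM-EX at 2 h and 36.3, 47.4 and 40.8 at 0 h, against 105, 127 and 119 in Micro-TOM at 2 h and 27.7, 43.6 and 31.8 at 0 h. The 2 h libraries were clearly apart and the 0 h libraries overlapped, with a log2 response difference of 1.36 ± 0.23 (SE, adjusted p = 0.00626). The lipoxygenase LOC101263535, counted in the jasmonate list although 9-lipoxygenases do not lead to jasmonate, had 2.7, 3.06 and 4.54 FPKM in Micro-TOM-EX at 2 h and 1.7, 1.15 and 1.74 at 0 h, against 1.17, 1.85 and 1.38 in Micro-TOM at 2 h and 6.0, 7.09 and 5.46 at 0 h. It rose in Micro-TOM-EX and fell in Micro-TOM, with a log2 response difference of 2.34 ± 0.26 (SE, adjusted p = 0.000668). Wfi1 and 5PT1 were chosen after their values were seen. Of 36 jasmonate synthesis and repressor genes 2 were higher and 2 lower.

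Among pathogenesis-related proteins 6 of 76 were higher (7.89%) and 1 was lower (1.32%), against 2.22% and 3.06% of all genes tested. Their median log2 response difference was -0.14. The 6 became 2 without MT0r3 or EX0r3, 3 without MT2r2 or EX0r1 and 1 without MT2r1 or EX2r3. The STH-2-like gene LOC101266638, of the PR-10 family of small intracellular defence proteins, had 15.3, 37.6 and 31.7 FPKM in Micro-TOM-EX at 2 h and 0, 1.1 and 0 at 0 h, against 2.61, 3.96 and 4.14 in Micro-TOM at 2 h and 0, 0 and 0 at 0 h. Its 2 h libraries did not overlap, and the log2 response difference was 2.24 ± 0.48 (SE, adjusted p = 0.0202). The beta-1,3-glucanase LOC101246571, which cuts callose and fungal wall glucan, had 105, 85.3 and 91.3 FPKM in Micro-TOM-EX at 2 h and 29.9, 26.9 and 28.6 at 0 h, against 63, 62.7 and 69.3 in Micro-TOM at 2 h and 44.5, 73 and 60.2 at 0 h. Its rise passed in Micro-TOM-EX alone, with a log2 response difference of 1.53 ± 0.22 (SE, adjusted p = 0.00311). The log2 changes deposited by the authors were 2.18 in Micro-TOM-EX and 0.52 in Micro-TOM, both with the authors' q-value below 0.05. The call of LOC101266638 ended without any 1 of MT2r1, EX0r3 or EX2r3 (adjusted p = 0.0547 to 0.0637). The call of LOC101266638 ended with a pseudocount of 0.1 (adjusted p = 0.469). Its log2 change deposited by the authors was 4.79 in Micro-TOM-EX and 7.06 in Micro-TOM, so its direction depended on the scale.

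**Figure D2:**
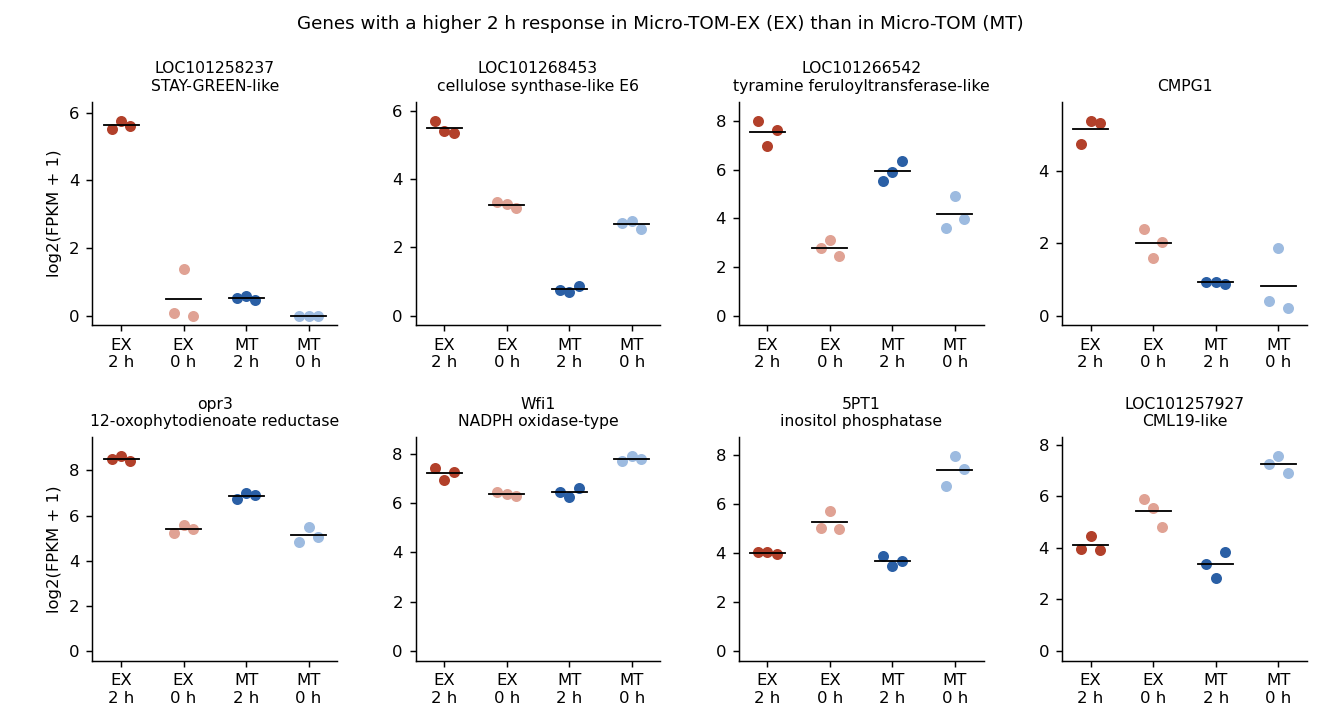
Log2(FPKM + 1) in each library (points) and group mean (bars) of 8 genes whose 2 h response was higher in Micro-TOM-EX, with Micro-TOM-EX at 2 h and 0 h to the left of Micro-TOM at 2 h and 0 h. LOC101258237 is high in 1 group alone, whereas 5PT1 differs between the materials mainly at 0 h.

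Ethylene response factors and other regulators that were near 0 FPKM at 0 h rose in both materials, and further in Micro-TOM-EX. LOC104645451 (chromosome 1, 83980245 to 83980923), named ethylene-responsive transcription factor 2-like, had 52.2, 39 and 40.1 FPKM in Micro-TOM-EX at 2 h and 0, 0 and 0 at 0 h, against 13.3, 19.5 and 17.2 in Micro-TOM at 2 h and 0.1, 0.1 and 0 at 0 h. Its log2 response difference was 1.44 ± 0.22 (SE, adjusted p = 0.00417). Both neighbours carry names of the same class: LOC101249592 had 5.21, 3.14 and 4.17 FPKM in Micro-TOM-EX at 2 h and 0, 0 and 0 at 0 h, against 0.6, 0.77 and 1.29 in Micro-TOM at 2 h and 0, 0 and 0 at 0 h, and its log2 response difference was 1.45 ± 0.24 (SE, adjusted p = 0.00597). LOC101249870 had 13.8, 16.3 and 15.4 FPKM in Micro-TOM-EX at 2 h and 0, 0 and 0 at 0 h, against 4.3, 9.24 and 5.65 in Micro-TOM at 2 h and 0, 0.17 and 0 at 0 h. For LOC101249870 the log2 response difference was 1.26 ± 0.29 (SE, adjusted p = 0.0276). In all 3 genes every 2 h library of Micro-TOM-EX was above every 2 h library of Micro-TOM. LOC101245410, named for the dehydration-responsive element-binding proteins that switch on drought genes, had 9.89, 8.63 and 8.52 FPKM in Micro-TOM-EX at 2 h and 0.17, 0.04 and 0.04 at 0 h, against 2.41, 2.29 and 2.21 in Micro-TOM at 2 h and 0.04, 0.08 and 0.04 at 0 h. Its 2 h libraries did not overlap either, and the log2 response difference was 1.56 ± 0.16 (SE, adjusted p = 0.000526). Of 86 AP2/ERF factors tested, 5 were higher (5.81%) and 3 lower (3.49%), against 2.22% and 3.06% of all genes tested. The 5 became 3 without MT2r1, EX0r3 or EX2r3 and 8 without EX2r1. The call of LOC101249870 ended without any 1 of MT0r3, MT2r1, MT2r3, EX0r1, EX0r3, EX2r2 or EX2r3 (adjusted p = 0.0554 to 0.0776). The call of LOC101249870 ended with either a pseudocount of 0.1 or the number 2 libraries of 0 h left out (adjusted p = 0.0709 to 0.109). LOC101249592 and LOC101249870 were chosen after their values were seen.

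A small heat shock protein, of a class that keeps unfolding proteins from clumping, showed the same form. LOC543848, the 17.6 kDa type I protein, had 39.8, 40.3 and 53.3 FPKM in Micro-TOM-EX at 2 h and 0.71, 0.72 and 0.08 at 0 h, against 14.4, 17 and 13.4 in Micro-TOM at 2 h and 0.4, 0.54 and 0.71 at 0 h. Its 2 h libraries were well apart, with a log2 response difference of 1.58 ± 0.28 (SE, adjusted p = 0.0076). The glutathione S-transferase LOC101267339, an enzyme that conjugates toxic compounds to glutathione, had 31.7, 24.8 and 23.6 FPKM in Micro-TOM-EX at 2 h and 0.33, 0.13 and 0.26 at 0 h, against 6.95, 10.4 and 10.2 in Micro-TOM at 2 h and 0.2, 0.52 and 0.07 at 0 h. Micro-TOM-EX rose further, without overlap at 2 h, and the log2 response difference was 1.46 ± 0.26 (SE, adjusted p = 0.00885). LOC101055601, named Hop-interacting protein THI031, had 247, 222 and 218 FPKM in Micro-TOM-EX at 2 h and 7.73, 6.14 and 5.72 at 0 h, against 46.9, 72 and 57.3 in Micro-TOM at 2 h and 8.66, 9.48 and 8.06 at 0 h. The 0 h ranges of the materials lay close together and the 2 h ranges far apart; the log2 response difference was 2.34 ± 0.22 (SE, adjusted p = 0.000304). The WRKY factors LOC101268787 and LOC101261141, of a family of defence and senescence regulators, fell less in Micro-TOM-EX. LOC101268787 averaged 89.5 ± 22.2 FPKM in Micro-TOM-EX at 2 h and 141 ± 39.3 FPKM at 0 h, against 49.3 ± 9.35 FPKM in Micro-TOM at 2 h and 240.0 ± 36.1 FPKM at 0 h (SD, n = 3). For LOC101268787 the log2 response difference was 1.62 ± 0.34 (SE, adjusted p = 0.0179). LOC101261141 averaged 22.2 ± 7.04 FPKM in Micro-TOM-EX at 2 h and 46.1 ± 9.22 FPKM at 0 h, against 12.2 ± 4.14 FPKM in Micro-TOM at 2 h and 74.2 ± 4.17 FPKM at 0 h (SD, n = 3). For LOC101261141 the log2 response difference was 1.51 ± 0.36 (SE, adjusted p = 0.0321). Of 51 WRKY factors 2 were higher and 1 was lower, and of 41 heat shock proteins 3 were higher and 3 lower. The call of LOC101268787 ended without MT2r1 or without EX2r3 (adjusted p = 0.0523 to 0.0555). The call of LOC101261141 ended without any 1 of MT0r1, MT0r2, MT0r3, MT2r1, MT2r2, EX0r1, EX0r2, EX0r3 or EX2r3 (adjusted p = 0.0512 to 0.0823). The calls of LOC543848 and LOC101267339 ended with a pseudocount of 0.1 (adjusted p = 0.146 to 0.201). The call of LOC101261141 ended with either no filter on low values or the number 2 libraries of 0 h left out (adjusted p = 0.0559 to 0.0899). LOC101055601 was chosen after its values were seen.

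In 83 genes the materials moved in opposite directions, each change passing on its own. Micro-TOM-EX rose and Micro-TOM fell in 37, among them Wfi1, LOC101268453, LOC101247596, LOC101265977 and LOC101263535 given above. The ankyrin repeat protein LOC101257491 had 38.3, 31.6 and 38.7 FPKM in Micro-TOM-EX at 2 h and 16.3, 10 and 21 at 0 h, against 16.7, 15.2 and 18.8 in Micro-TOM at 2 h and 35.1, 45.9 and 29.4 at 0 h. Every Micro-TOM-EX library lay below every Micro-TOM library at 0 h and above every one at 2 h, and the log2 response difference was 2.26 ± 0.32 (SE, adjusted p = 0.00305). The subtilisin-like protease LOC101252733, a secreted proteinase, averaged 35.9 ± 16.2 FPKM in Micro-TOM-EX at 2 h and 12.2 ± 1.35 FPKM at 0 h, against 14.4 ± 3.88 FPKM in Micro-TOM at 2 h and 25.6 ± 3.88 FPKM at 0 h (SD, n = 3). For LOC101252733 the log2 response difference was 2.2 ± 0.40 (SE, adjusted p = 0.00993). Micro-TOM-EX fell and Micro-TOM rose in 46 genes. The wound-induced protein 1-like gene LOC101265932 averaged 14 ± 2.15 FPKM in Micro-TOM-EX at 2 h and 23.5 ± 3.71 FPKM at 0 h, against 23 ± 1.81 FPKM in Micro-TOM at 2 h and 14.3 ± 2.16 FPKM at 0 h (SD, n = 3). Its log2 response difference was -1.36 ± 0.22 (SE, adjusted p = 0.00523). The MYB factor THM16 averaged 7.81 ± 0.474 FPKM in Micro-TOM-EX at 2 h and 12.8 ± 2.38 FPKM at 0 h, against 12.2 ± 2.53 FPKM in Micro-TOM at 2 h and 6.47 ± 0.833 FPKM at 0 h (SD, n = 3), and its log2 response difference was -1.45 ± 0.24 (SE, adjusted p = 0.0059). LOC101257491 and LOC101252733 were chosen after their values were seen.

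The lower responses were led by genes that Micro-TOM switched on from near 0 FPKM within 2 h and that Micro-TOM-EX raised far less. The leucine-rich repeat receptor kinase gene LOC101268564 (chromosome 4, 277939 to 280173) had 3.66, 8.62 and 2.83 FPKM in Micro-TOM-EX at 2 h and 0, 0.1 and 0.02 at 0 h, against 71.6, 40.3 and 53.8 in Micro-TOM at 2 h and 0, 0.05 and 0 at 0 h. It was at or near 0 at 0 h in both materials, the 2 h libraries did not overlap, and the log2 response difference was -3.33 ± 0.42 (SE, adjusted p = 0.00145). It overlaps LOC101268860, which had 119 FPKM in Micro-TOM-EX and 130.0 FPKM in Micro-TOM at 2 h and was not called. The MADS-box factor LOC101244319 (chromosome 1, 86400167 to 86401130), of a family best known for flowering and floral organs, had 1.32, 3.51 and 1.22 FPKM in Micro-TOM-EX at 2 h and 0.44, 0.22 and 0 at 0 h, against 31.6, 17.5 and 18.1 in Micro-TOM at 2 h and 0.11, 0.21 and 0.32 at 0 h. Every Micro-TOM library of 2 h was above every Micro-TOM-EX library, with a log2 response difference of -2.98 ± 0.40 (SE, adjusted p = 0.00233). The call of LOC101244319 ended with a pseudocount of 0.1 (adjusted p = 0.0513).

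A gene named for a water stress factor and a heat stress factor gene were among those with a lower response. LOC101245410, also named for dehydration-responsive element-binding proteins, was called higher, and of 86 AP2/ERF factors 5 were higher and 3 lower. Of 21 heat stress factors 1 was lower (4.76%) and none higher, against 3.06% and 2.22% of all genes tested. The median log2 response difference of the heat stress factors was -0.02. LOC101261712 (chromosome 5, 62634411 to 62637232), named DREB2 after the factors that bind the dehydration-responsive element, had 12.9, 22 and 11.5 FPKM in Micro-TOM-EX at 2 h and 0.13, 0.71 and 0.18 at 0 h, against 66.2, 52.2 and 59.6 in Micro-TOM at 2 h and 0.2, 0.06 and 0.09 at 0 h. It rose in both materials, in every 2 h library of Micro-TOM far above Micro-TOM-EX, with a log2 response difference of -2.16 ± 0.32 (SE, adjusted p = 0.00349). It averaged 51.8 ± 15.7 FPKM in Micro-TOM-EX and 50.3 ± 14.1 FPKM in Micro-TOM at 8 h (SD, n = 3). The heat stress factor LOC104645813, a class A activator by name, had 67.4, 41.2 and 49.8 FPKM in Micro-TOM-EX at 2 h and 0.17, 0.18 and 0.2 at 0 h, against 187, 171 and 109 in Micro-TOM at 2 h and 0.18, 0.48 and 0.21 at 0 h. Its 2 h libraries did not overlap, and the log2 response difference was -1.42 ± 0.30 (SE, adjusted p = 0.0209).

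Further transcription factors rose more in Micro-TOM or rose there alone. The ethylene response factor ERF114, LOC101267882, had 0.4, 1.12 and 0.81 FPKM in Micro-TOM-EX at 2 h and 0.05, 0.76 and 0.52 at 0 h, against 4.46, 4.48 and 4.64 in Micro-TOM at 2 h and 0.27, 0.26 and 0.27 at 0 h. It rose in Micro-TOM alone, with a log2 response difference of -1.81 ± 0.28 (SE, adjusted p = 0.00408). The NAC factor LOC101247148, of a family that includes stress and senescence regulators, had 0.24, 0.25 and 0.24 FPKM in Micro-TOM-EX at 2 h and 0, 0.04 and 0.17 at 0 h, against 2.35, 1.92 and 2.31 in Micro-TOM at 2 h and 0, 0.04 and 0.09 at 0 h. Only Micro-TOM at 2 h exceeded 1 FPKM, and the log2 response difference was -1.39 ± 0.17 (SE, adjusted p = 0.00133). The more abundant NAC factor LOC101267475 averaged 382 ± 37.7 FPKM in Micro-TOM-EX at 2 h and 121 ± 16.9 FPKM at 0 h, against 615 ± 31.3 FPKM in Micro-TOM at 2 h and 102 ± 7.07 FPKM at 0 h (SD, n = 3), a rise in both with a log2 response difference of -0.92 ± 0.18 (SE, adjusted p = 0.0137). Of 36 NAC factors 4 were lower (11.1%), against 3.06% of all genes tested, and none higher. The 4 became 2 without MT0r3, MT2r1, MT2r3 or EX0r3, and with single libraries left out 0 to 1 was higher. LOC101248690 (chromosome 7, 2976030 to 2979542), an EIN3-binding F-box gene whose product removes the main factor of the ethylene response, had 34.8, 32.7 and 35 FPKM in Micro-TOM-EX at 2 h and 30.9, 35.4 and 33.6 at 0 h, against 76.8, 119 and 83.1 in Micro-TOM at 2 h and 22.6, 25.3 and 23.8 at 0 h. It rose in Micro-TOM and did not pass in Micro-TOM-EX, whose 6 libraries lay close together; the log2 response difference was -1.85 ± 0.20 (SE, adjusted p = 0.000668). The call of LOC104645813 ended without any 1 of MT0r3, MT2r1, MT2r2, EX0r3 or EX2r3 (adjusted p = 0.0515 to 0.0636). The calls of LOC104645813 and LOC101267882 ended with a pseudocount of 0.1 (adjusted p = 0.0794 to 0.16). The call of LOC104645813 ended with the fit of all 18 libraries (adjusted p = 0.0571). LOC101261712 was chosen after its values were seen.

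Carbohydrate genes tied to osmotic stress rose in both materials and less in Micro-TOM-EX. Of the 40 starch, trehalose and raffinose genes 4 were lower (10%), against 3.06% of all genes tested, and none higher. With single libraries left out 3 to 5 were lower and 0 to 2 higher, and with the replicate block 4 were lower and 2 higher. GolS2 (chromosome 2, 48012359 to 48013893), a galactinol synthase that starts raffinose synthesis, had 237, 369.6 and 222 FPKM in Micro-TOM-EX at 2 h and 3.28, 4.8 and 2.77 at 0 h, against 621, 682 and 636 in Micro-TOM at 2 h and 2.26, 3.38 and 3.05 at 0 h. Its 2 h libraries of Micro-TOM-EX all lay below those of Micro-TOM, with a log2 response difference of -1.49 ± 0.29 (SE, adjusted p = 0.0135). The beta-amylase gene BAM1 (chromosome 9, 70382395 to 70385139), whose product breaks starch down to maltose, had 1572, 1652 and 1380.5 FPKM in Micro-TOM-EX at 2 h and 158, 173 and 162 at 0 h, against 2469.5, 2179 and 2532 in Micro-TOM at 2 h and 90.2, 133 and 91.3 at 0 h. Again the 2 h libraries did not overlap, and the log2 response difference was -1.31 ± 0.22 (SE, adjusted p = 0.00659). The trehalose-phosphate phosphatase LOC101250960, which makes trehalose from its phosphate, averaged 3.68 ± 0.716 FPKM in Micro-TOM-EX at 2 h and 1.21 ± 0.102 FPKM at 0 h, against 12.3 ± 2.38 FPKM in Micro-TOM at 2 h and 1.56 ± 0.234 FPKM at 0 h (SD, n = 3). For LOC101250960 the log2 response difference was -1.29 ± 0.23 (SE, adjusted p = 0.00783).

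Some genes for detoxifying and signalling proteins had lower responses as well. Among 34 antioxidant enzymes 1 was lower (2.94%), near the 3.06% of all genes tested, and none was higher. Calcium sensors and regulated kinases held 7 higher and 1 lower of 123, and type 2C phosphatases 2 higher and 3 lower of 70. The glutathione S-transferase LOC101265881 had 1.18, 1.24 and 0.52 FPKM in Micro-TOM-EX at 2 h and 0.25, 0.4 and 0.34 at 0 h, against 6.09, 3.54 and 6.07 in Micro-TOM at 2 h and 0.36, 0.54 and 0.7 at 0 h, a log2 response difference of -1.45 ± 0.29 (SE, adjusted p = 0.015). LOC101244886, of the same class, averaged 9.42 ± 1.91 FPKM in Micro-TOM-EX at 2 h and 4.94 ± 0.265 FPKM at 0 h, against 26.1 ± 10.8 FPKM in Micro-TOM at 2 h and 3.72 ± 0.77 FPKM at 0 h (SD, n = 3). For LOC101244886 the log2 response difference was -1.67 ± 0.34 (SE, adjusted p = 0.0171). Of 37 glutathione S-transferases 4 were lower (10.8%) and 1 was higher (2.70%), against 3.06% and 2.22% of all genes tested. All 4 lay lower without overlap of the 2 h libraries, as did 485 of the 546 lower genes and 16.8% of all tested genes. The 4 became 2 without EX2r3. The catalase gene LOC101259333, coding for an enzyme that splits hydrogen peroxide, had 3.14, 3.77 and 2.15 FPKM in Micro-TOM-EX at 2 h and 1.73, 2.54 and 1.84 at 0 h, against 6.59, 9.8 and 6.52 in Micro-TOM at 2 h and 1.38, 1.24 and 1.29 at 0 h. Its rise passed in Micro-TOM alone, with a log2 response difference of -1.49 ± 0.27 (SE, adjusted p = 0.00864). The log2 changes deposited by the authors were 1.04 in Micro-TOM-EX and 2.91 in Micro-TOM, both with the authors' q-value below 0.05. LOC101258661 (chromosome 6, 35641600 to 35645774), named calcineurin B-like protein 4 after the Arabidopsis calcium sensor that activates sodium export, had 12.7, 14.1 and 11.6 FPKM in Micro-TOM-EX at 2 h and 0.4, 0.19 and 0.28 at 0 h, against 31.2, 29.3 and 23.5 in Micro-TOM at 2 h and 0.14, 0.32 and 0.23 at 0 h. Micro-TOM rose further, without overlap at 2 h, and the log2 response difference was -1.14 ± 0.20 (SE, adjusted p = 0.00743). The gene overlaps LOC101258375 on the other strand, which had 19.3 FPKM in Micro-TOM-EX and 34.5 FPKM in Micro-TOM at 2 h and was not called. The type 2C phosphatase LOC101260276, of a large family in which some members hold back abscisic acid signalling, fell in both and further in Micro-TOM-EX. It averaged 0.827 ± 0.299 FPKM in Micro-TOM-EX at 2 h and 8.88 ± 2.24 FPKM at 0 h, against 3.91 ± 0.344 FPKM in Micro-TOM at 2 h and 7.03 ± 1.63 FPKM at 0 h (SD, n = 3). For LOC101260276 the log2 response difference was -1.73 ± 0.28 (SE, adjusted p = 0.00532). The call of LOC101244886 ended without EX2r3 (adjusted p = 0.0518). The calls of LOC101265881 and LOC101258661 ended with a pseudocount of 0.1 (adjusted p = 0.0607 to 0.0787).

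Metabolic enzymes were among the largest lower differences. The ATP-citrate synthase alpha chain gene LOC101258745 (chromosome 4, 13010433 to 13015110), for an enzyme that makes acetyl-CoA in the cytosol, had 0, 0.04 and 0 FPKM in Micro-TOM-EX at 2 h and 0.09, 0.05 and 0.05 at 0 h, against 14.1, 16.9 and 13.1 in Micro-TOM at 2 h and 1.07, 1.58 and 1.63 at 0 h. It was near 0 in all 6 Micro-TOM-EX libraries, and the log2 response difference was -2.76 ± 0.19 (SE, adjusted p = 6.11e-05); at 8 h it averaged 0 ± 0 FPKM in Micro-TOM-EX and 3.21 ± 0.113 FPKM in Micro-TOM. The crocetin glucosyltransferase-like gene LOC101250740 (chromosome 9, 71561121 to 71562831), of a family that adds glucose to small molecules, had 9.4, 8.47 and 7.81 FPKM in Micro-TOM-EX at 2 h and 35.2, 22.5 and 30.4 at 0 h, against 37.2, 50.9 and 73.9 in Micro-TOM at 2 h and 22.8, 19.1 and 22.5 at 0 h. It fell in Micro-TOM-EX and rose in Micro-TOM, in every library, with a log2 response difference of -2.89 ± 0.31 (SE, adjusted p = 0.000659). The gene LOC101245991, a homolog of the ethylene-forming ACC oxidase, had 0.31, 0.52 and 0.38 FPKM in Micro-TOM-EX at 2 h and 6.58, 9.84 and 6.36 at 0 h, against 11.1, 3.98 and 4.44 in Micro-TOM at 2 h and 4.61, 3.22 and 4.53 at 0 h. It fell in Micro-TOM-EX alone, with a log2 response difference of -3.04 ± 0.41 (SE, adjusted p = 0.00233). It overlaps LOC101244528, which was not called. Of the 13 ACC oxidase homologs tested, 2 were higher and 1 was lower. The agmatine coumaroyltransferase-like gene LOC101244961, of a class that makes antifungal phenolamides, had 4.34, 1.8 and 1.62 FPKM in Micro-TOM-EX at 2 h and 1.95, 4.78 and 1.78 at 0 h, against 10.6, 28.3 and 32.8 in Micro-TOM at 2 h and 2.48, 1.9 and 2.54 at 0 h. The Micro-TOM libraries of 2 h were high but scattered, and the log2 response difference was -2.87 ± 0.58 (SE, adjusted p = 0.0167). It averaged 18.9 ± 4.95 FPKM in Micro-TOM-EX and 111 ± 18 FPKM in Micro-TOM at 8 h (SD, n = 3). The call of LOC101244961 ended without EX2r3 (adjusted p = 0.0537).

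The remaining 6 of the 12 largest lower differences were 2 glycosyltransferases, a cytochrome P450, an organelle protein, an oil body protein and a copper protein. The glycosyltransferase LOC101261675 averaged 0.697 ± 0.591 FPKM in Micro-TOM-EX at 2 h and 23.6 ± 1.81 FPKM at 0 h, against 2.71 ± 0.935 FPKM in Micro-TOM at 2 h and 7.44 ± 1.95 FPKM at 0 h (SD, n = 3), a deeper fall in Micro-TOM-EX with a log2 response difference of -2.72 ± 0.37 (SE, adjusted p = 0.00233). The flavonoid glucosyltransferase-like gene LOC101253864 averaged 0.863 ± 0.116 FPKM in Micro-TOM-EX at 2 h and 3.14 ± 0.974 FPKM at 0 h, against 8.25 ± 4.32 FPKM in Micro-TOM at 2 h and 2.22 ± 0.196 FPKM at 0 h (SD, n = 3); it fell in Micro-TOM-EX and rose in Micro-TOM, with a log2 response difference of -2.56 ± 0.37 (SE, adjusted p = 0.00319). The cytochrome P450 LOC101268591, an oxidase of specialised metabolism, had 1.42, 1.8 and 1.6 FPKM in Micro-TOM-EX at 2 h and 0.79, 1.89 and 1.26 at 0 h, against 13.7, 9.97 and 10.9 in Micro-TOM at 2 h and 1.14, 1.02 and 0.45 at 0 h. Its rise passed in Micro-TOM alone, with a log2 response difference of -2.55 ± 0.29 (SE, adjusted p = 0.000754). The log2 changes deposited by the authors were 1.46 in Micro-TOM-EX and 4.37 in Micro-TOM, both with the authors' q-value below 0.05. LOC101261651, a mitochondrial member of the APO family of organelle RNA-processing proteins, averaged 2.01 ± 1.61 FPKM in Micro-TOM-EX at 2 h and 1.47 ± 0.405 FPKM at 0 h, against 20.4 ± 5.78 FPKM in Micro-TOM at 2 h and 1.5 ± 0.3 FPKM at 0 h (SD, n = 3). For LOC101261651 the log2 response difference was -2.90 ± 0.43 (SE, adjusted p = 0.0037). The oil body-associated protein gene LOC101259110 averaged 1.36 ± 0.256 FPKM in Micro-TOM-EX at 2 h and 0.943 ± 0.595 FPKM at 0 h, against 12.4 ± 1.12 FPKM in Micro-TOM at 2 h and 0.433 ± 0.43 FPKM at 0 h (SD, n = 3). For LOC101259110 the log2 response difference was -2.95 ± 0.34 (SE, adjusted p = 0.000827). It overlaps the far more abundant LOC101256055, which was not called. The copper protein dicyanin, LOC543645, had 85.3, 368 and 175 FPKM in Micro-TOM-EX at 2 h and 16.6, 37 and 25.8 at 0 h, against 344, 612 and 392 in Micro-TOM at 2 h and 3.55, 12.9 and 7.54 at 0 h. It rose in both, and the 2 h ranges overlapped, EX2r2 lying above MT2r1; the log2 response difference was -2.98 ± 0.73 (SE, adjusted p = 0.0372). The call of LOC543645 ended without any 1 of MT0r1, MT0r3, MT2r1, MT2r2, MT2r3, EX0r2, EX0r3 or EX2r3 (adjusted p = 0.066 to 0.0923). The call of LOC543645 ended with no filter on low values (adjusted p = 0.0716).

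**Figure D3:**
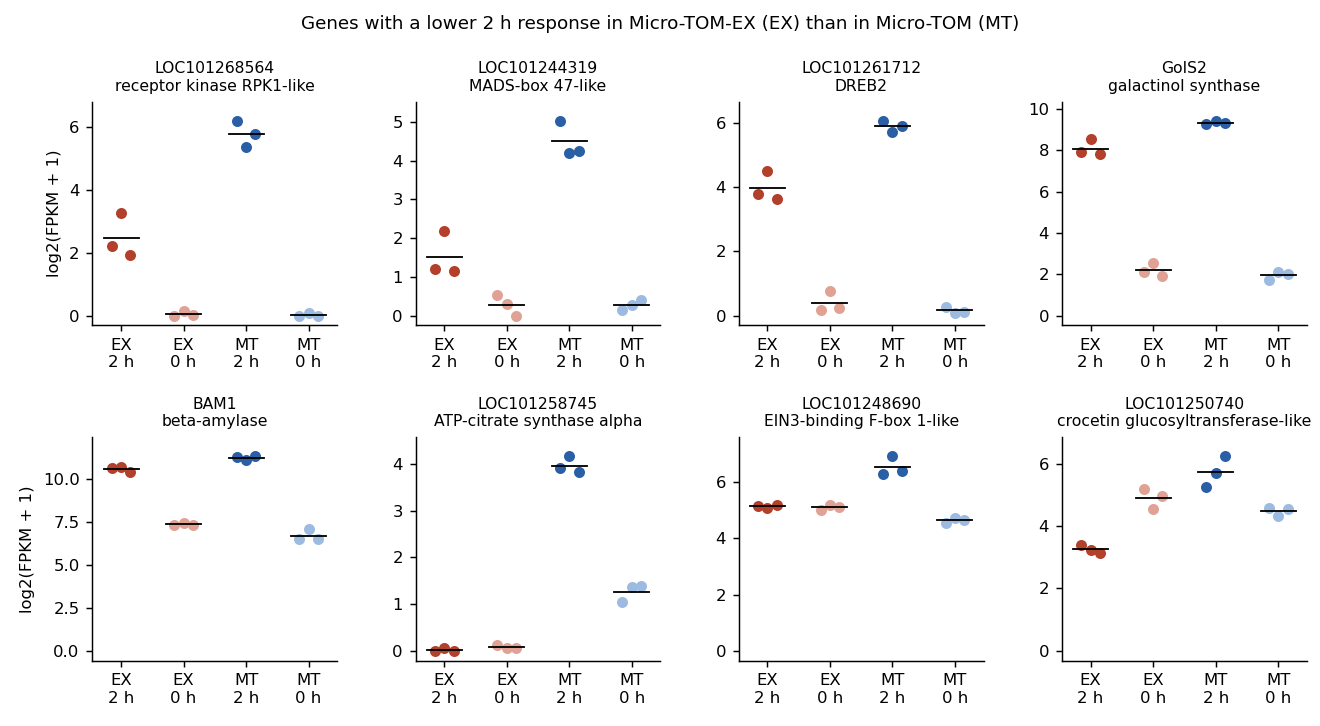
Log2(FPKM + 1) in each library (points) and group mean (bars) of 8 genes whose 2 h response was lower in Micro-TOM-EX, with Micro-TOM-EX at 2 h and 0 h to the left of Micro-TOM at 2 h and 0 h. LOC101268564, GolS2 and BAM1 rose in both materials, the rise of LOC101248690 passed in Micro-TOM alone, and LOC101250740 moved in opposite directions.

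A set of genes was reached in Micro-TOM at 2 h and hardly elsewhere. With a mean of at least 3 FPKM in 1 group and under 1.5 FPKM in the other 3 groups of 0 h and 2 h, 90 genes belonged to Micro-TOM at 2 h and 24 to Micro-TOM-EX at 2 h. These limits use the same 2 h and 0 h levels as the response difference and so fix the direction of its calls, and the counts are a description. Of the 90, 75 were called lower, at a median of 4.60 FPKM in Micro-TOM at 2 h, and of the 24, 15 were called higher. The 75 held 13 gene models new to the annotation, 9 pentatricopeptide repeat genes and 18 uncharacterized genes, and 52 of them stayed under 3 FPKM in both materials at 8 h. The receptor-like kinase LYK2, LOC101263486, of the family that senses chitin fragments, had 0.75, 1.09 and 0.66 FPKM in Micro-TOM-EX at 2 h and 0.14, 0.09 and 0 at 0 h, against 14.3, 5.65 and 7.54 in Micro-TOM at 2 h and 0.05, 0.02 and 0 at 0 h. The ABC transporter E member LOC101254120, of a family that recycles ribosomes, had 0.91, 1.85 and 1.03 FPKM in Micro-TOM-EX at 2 h and 0.23, 0.59 and 0.27 at 0 h, against 14.4, 8.07 and 7.88 in Micro-TOM at 2 h and 0.3, 0.28 and 0.23 at 0 h. In both, MT2r1 was the highest of all 12 libraries, with a log2 response difference of -2.46 ± 0.34 (SE, adjusted p = 0.00273) for LOC101263486 and -2.36 ± 0.32 (SE, adjusted p = 0.00231) for LOC101254120. The urease accessory gene ureF, outside that set because of its levels in the other groups, had 5.94, 5.17 and 6.56 FPKM in Micro-TOM-EX at 2 h and 4.36, 5.1 and 3.43 at 0 h, against 49.4, 30.3 and 28.6 in Micro-TOM at 2 h and 4.75, 4.25 and 2.81 at 0 h. For ureF the log2 response difference was -2.50 ± 0.31 (SE, adjusted p = 0.00145). LOC101252724, named random slug protein 5-like, had 0.84, 1.56 and 0.98 FPKM in Micro-TOM-EX at 2 h and 0, 0.05 and 0 at 0 h, against 10, 8.83 and 9.95 in Micro-TOM at 2 h and 0, 0 and 0 at 0 h. For LOC101252724 the log2 response difference was -2.35 ± 0.20 (SE, adjusted p = 0.00015). These 4 genes were chosen after their values were seen.

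Many of the lower genes share their place in the genome with another gene. A further annotated gene overlapped 25.1% of the 546 lower genes (137) and 36% of the 75 reached in Micro-TOM at 2 h alone (27), against 15.2% of the 395 higher genes (60) and 13.6% of all tested genes (2422). Whether the authors' counting used strand is not stated, so reads of overlapping genes may not have been told apart, and the part of this in the calls was not tested. Of the genes named above, ureF, LOC101252724, LOC101247148, LOC101265881, LOC101244886, LOC101260276, LOC101253864, LOC101268787 and LOC101264083 also overlap another annotated gene. Among those named below, LOC101245160, LOC104647115, LOC101260303, LOC101265330 and LOC101259407 do so too. Tested genes listed at 0 FPKM numbered 92 to 129 in Micro-TOM-EX libraries and 81 to 132 in Micro-TOM libraries at 2 h.

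Pentatricopeptide repeat proteins, which bind and process RNA in mitochondria and chloroplasts, had calls on 1 side only; the family was chosen after values were seen and so has no test. Of 280 tested, 30 were lower and none higher, with a median log2 response difference of -0.14 over the 280. Among the 30, 15 reached the filter of 1 FPKM only through their Micro-TOM libraries of 2 h, where they are high, so the count is a description and is not set against the share of all genes (10.7%, against 3.06%) as support. Of the 30, 25 rose in Micro-TOM, and 21 had no passing change in Micro-TOM-EX. Every Micro-TOM-EX library of 2 h lay below every Micro-TOM library of 2 h for 485 of the 546 lower genes and 16.8% of all tested genes. All 30 showed that order, which rests on the same 2 h values as the call. None of the 30 differed between the materials at 0 h. The medians of their mean levels were 0.53 FPKM in Micro-TOM-EX at 2 h and 0.878 at 0 h, against 3.04 in Micro-TOM at 2 h and 0.818 at 0 h, and at 8 h they were 2.16 in Micro-TOM-EX and 2.46 in Micro-TOM. LOC101245160 had 0.47, 0.73 and 0.35 FPKM in Micro-TOM-EX at 2 h and 0.16, 0.27 and 0.22 at 0 h, against 5.41, 4.29 and 4.12 in Micro-TOM at 2 h and 0.17, 0.17 and 0.23 at 0 h. The 2 h libraries were far apart, with a log2 response difference of -1.92 ± 0.19 (SE, adjusted p = 0.000416). LOC104647115 had 0.53, 0.67 and 0.3 FPKM in Micro-TOM-EX at 2 h and 0.32, 0.5 and 0.24 at 0 h, against 3.2, 3.01 and 3.22 in Micro-TOM at 2 h and 0.29, 0.14 and 0.35 at 0 h, the same form at a lower level, with a log2 response difference of -1.58 ± 0.20 (SE, adjusted p = 0.00145). LOC101260303 and LOC101259080, chosen after their values were seen, averaged 0.773 and 0.83 FPKM in Micro-TOM-EX at 2 h, against 7.41 and 6.21 FPKM in Micro-TOM at 2 h. The values are low, and the count depended on that: with a filter of 5 FPKM 113 members were tested and 4 were lower. The 30 became 19 without MT0r3, 18 without MT2r1 and 17 without EX2r3. With single libraries left out 0 to 2 members were higher. Another gene overlapped 15 of the 30, 50%, and 65 of the 280 tested, 23.2%.

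**Figure D4:**
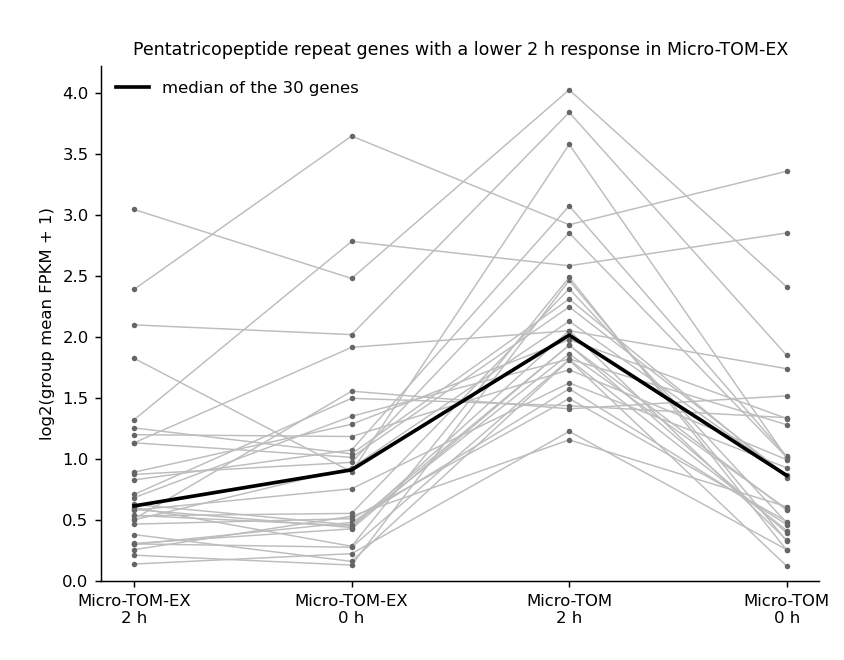
Log2 of mean FPKM + 1 (vertical axis) of each of the 30 pentatricopeptide repeat genes called lower (thin lines), in Micro-TOM-EX at 2 h and 0 h and in Micro-TOM at 2 h and 0 h, with the median as a thick line. The median line is highest in Micro-TOM at 2 h, at 3.04 FPKM, while a few single lines are highest at 0 h.

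Lists of genes by function were set beside the share of all genes, 2.22% higher and 3.06% lower. Members were called on 1 side only in several. Histones, cyclins and replication genes held 6 lower of 75 and none higher (4 to 7 lower and 0 to 2 higher with single libraries left out). The replication gene LOC101254462, subunit B of DNA polymerase epsilon, averaged 1.28 ± 0.444 FPKM in Micro-TOM-EX at 2 h and 0.693 ± 0.428 FPKM at 0 h, against 6.04 ± 0.289 FPKM in Micro-TOM at 2 h and 0.653 ± 0.103 FPKM at 0 h (SD, n = 3). For LOC101254462 the log2 response difference was -1.65 ± 0.27 (SE, adjusted p = 0.00533). The histone H2B gene LOC101252186 averaged 2.4 ± 0.251 FPKM in Micro-TOM-EX at 2 h and 1.29 ± 0.154 FPKM at 0 h, against 8.22 ± 2.44 FPKM in Micro-TOM at 2 h and 0.593 ± 0.412 FPKM at 0 h (SD, n = 3). For LOC101252186 the log2 response difference was -1.96 ± 0.32 (SE, adjusted p = 0.00578). Kinesins, motor proteins of the cytoskeleton and a family chosen after values were seen, held 5 lower of 34 and none higher, at a median log2 response difference of -0.32. No call was made in this family without MT0r1, MT0r3, any 1 library of Micro-TOM at 2 h or EX2r3, and 1 to 3 without EX0r1, EX0r2, EX0r3, EX2r1 or EX2r2. LOC101266568, a kinesin-7 gene, averaged 39.2 ± 4.83 FPKM in Micro-TOM-EX at 2 h and 7.42 ± 1.76 FPKM at 0 h, against 56.9 ± 1.26 FPKM in Micro-TOM at 2 h and 5.6 ± 0.486 FPKM at 0 h (SD, n = 3). For LOC101266568 the log2 response difference was -0.87 ± 0.21 (SE, adjusted p = 0.0338). Circadian clock genes held 2 lower of 26, aquaporins 2 of 23, gibberellin and cytokinin metabolism 2 of 27 and bHLH factors 3 of 64, each with none higher. With single libraries left out, the lower members numbered 1 to 6 for the clock, 0 to 2 for aquaporins, 0 to 4 for gibberellin and cytokinin metabolism and 1 to 4 for bHLH factors. The higher ones then numbered 0 for the clock, 0 to 1 for aquaporins and for gibberellin and cytokinin metabolism, and 0 to 2 for bHLH factors. LOC101250283, an evening pseudo-response regulator of the clock named APRR5, averaged 2.03 ± 0.912 FPKM in Micro-TOM-EX at 2 h and 0.237 ± 0.15 FPKM at 0 h, against 5.55 ± 1.57 FPKM in Micro-TOM at 2 h and 0.09 ± 0.07 FPKM at 0 h (SD, n = 3). For LOC101250283 the log2 response difference was -1.30 ± 0.32 (SE, adjusted p = 0.0376). The plasma membrane water channel gene aquaporin averaged 60.6 ± 9.23 FPKM in Micro-TOM-EX at 2 h and 349 ± 63.4 FPKM at 0 h, against 118 ± 15 FPKM in Micro-TOM at 2 h and 284 ± 107 FPKM at 0 h (SD, n = 3). For aquaporin the log2 response difference was -1.30 ± 0.33 (SE, adjusted p = 0.0467). The call of LOC101266568 ended without any 1 of MT0r1, MT0r3, MT2r1, MT2r2, MT2r3, EX0r1, EX2r1 or EX2r3 (adjusted p = 0.0536 to 0.0933). The call of LOC101250283 ended without any 1 of MT0r1, MT0r3, MT2r1, MT2r3, EX0r1, EX0r2, EX0r3, EX2r1 or EX2r3 (adjusted p = 0.0601 to 0.107). The call of aquaporin ended without any 1 of MT0r1, MT0r3, MT2r1, MT2r2, MT2r3, EX0r2, EX0r3, EX2r1, EX2r2 or EX2r3 (adjusted p = 0.0546 to 0.128). The calls of LOC101250283 and aquaporin ended with either no filter on low values or a pseudocount of 0.1 (adjusted p = 0.0537 to 0.0753). The call of LOC101250283 ended with any 1 of the replicate block, the replicate block within each hour or the number 2 libraries of 0 h left out (adjusted p = 0.0564 to 0.083). The call of aquaporin ended with either the filter of 5 FPKM or no mean trend (adjusted p = 0.051 to 0.0529).

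Lists with members on both sides were nitrogen transport and assimilation with 2 higher and 6 lower of 67, cell wall loosening and pectin enzymes with 2 and 7 of 120, auxin signalling with 2 and 4 of 87, MYB factors with 3 and 5 of 81, ethylene synthesis and perception with 5 and 3 of 37 and type 2C phosphatases with 2 and 3 of 70. The 6 nitrogen genes became 2 to 3 without MT0r1, MT0r3, MT2r1, MT2r3, EX2r2 or EX2r3, the 7 wall genes 1 to 4 without any 1 of the 12 libraries, and the 5 MYB factors 2 to 3 without MT0r3, MT2r1, EX0r3 or EX2r3. The 4 auxin genes became 0 to 2 without any 1 library other than MT0r1, EX0r2 and EX2r1, and the 5 higher ethylene genes 3 without MT0r2, MT0r3, MT2r1, MT2r2 or EX2r3. The nitrate and peptide transporter family gene LOC101265330 had 0.33, 0.23 and 0.26 FPKM in Micro-TOM-EX at 2 h and 0.38, 0.36 and 0.69 at 0 h, against 5.79, 4.42 and 3.97 in Micro-TOM at 2 h and 0.47, 0.56 and 0.3 at 0 h. It was reached in Micro-TOM at 2 h alone, with a log2 response difference of -2.19 ± 0.21 (SE, adjusted p = 0.000387). It overlaps LOC104647193 on the other strand, which had 5.63 FPKM in Micro-TOM-EX and 8.99 in Micro-TOM at 2 h and was not called. The auxin-regulated gene LOC543701 averaged 270.4 ± 15.5 FPKM in Micro-TOM-EX at 2 h and 38.9 ± 3.74 FPKM at 0 h, against 246 ± 26.8 FPKM in Micro-TOM at 2 h and 104 ± 39.4 FPKM at 0 h (SD, n = 3). For LOC543701 the log2 response difference was 1.47 ± 0.29 (SE, adjusted p = 0.0139). The pectinesterase-like gene LOC101267809, whose class trims wall pectin, averaged 1.06 ± 0.333 FPKM in Micro-TOM-EX at 2 h and 0.0933 ± 0.095 FPKM at 0 h, against 5.0 ± 1.58 FPKM in Micro-TOM at 2 h and 0.07 ± 0.0624 FPKM at 0 h (SD, n = 3). For LOC101267809 the log2 response difference was -1.55 ± 0.27 (SE, adjusted p = 0.00822). The call of LOC101267809 ended with a pseudocount of 0.1 (adjusted p = 0.0837). No member was called among 46 plastid-type ribosomal proteins, 44 proteasome subunits and 27 endoplasmic reticulum folding proteins. There was 1 call, lower, among each of 208 cytosolic ribosomal proteins, 68 photosystem and light-harvesting proteins and 17 carbon fixation enzymes. New gene models not in the annotation held 15 higher (3.14%) and 34 lower (7.11%) among those tested, the 15 became 8 without MT2r1 and 9 without MT0r3, MT2r2 or EX2r3, the 34 became 22 without MT2r1 or EX2r3, and with a filter of 5 FPKM 6 were higher and 10 lower of 155.

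**Figure D5:**
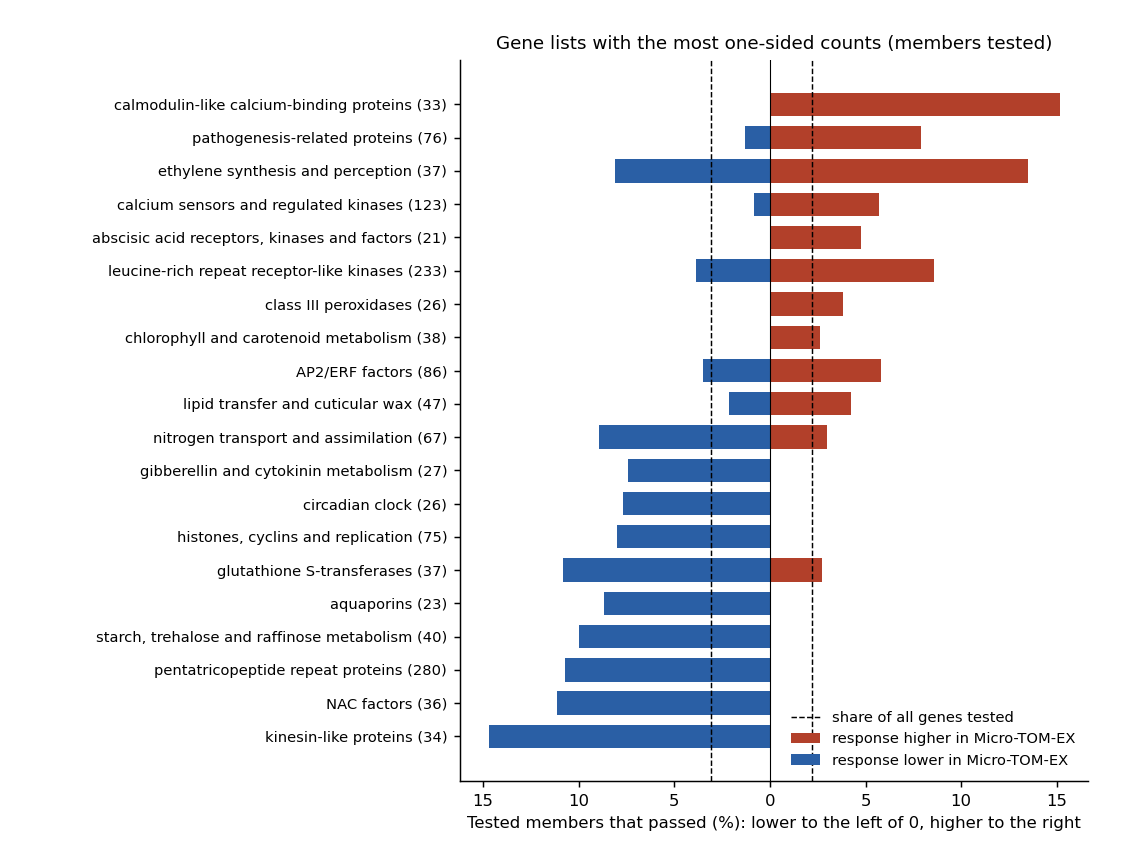
Percent of tested members with a higher (right) and a lower (left) response in Micro-TOM-EX in the 20 lists of at least 20 tested genes with the most one-sided counts; dashed lines mark the shares of all genes, 2.22% and 3.06%. Pentatricopeptide repeat, kinesin and calmodulin-like genes were added as families after values were seen.

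Genes best known from salt and drought responses included members that were called and members that were not. The dehydrin TAS14, a hydrophilic protein of dry cells, had 1222, 2061 and 1394 FPKM in Micro-TOM-EX at 2 h and 2.15, 152 and 4.14 at 0 h, against 1991, 2426 and 1977 in Micro-TOM at 2 h and 0.27, 1.74 and 1.51 at 0 h. It rose in both materials, EX0r2 lay far above the other 0 h libraries, and the log2 response difference of -3.20 ± 1.51 did not pass (SE, adjusted p = 0.286). It was -1.65 (adjusted p = 0.0641) without the number 2 libraries of 0 h, and -4.25 to -1.45 with single libraries left out. The sodium transporter HKT1,2, which takes sodium out of the xylem stream, averaged 12.3 ± 5.26 FPKM in Micro-TOM-EX at 2 h and 7.17 ± 1.4 FPKM at 0 h, against 15.8 ± 2.6 FPKM in Micro-TOM at 2 h and 6.22 ± 1.51 FPKM at 0 h (SD, n = 3), with a log2 response difference of -0.59 ± 0.38 that did not pass (SE, adjusted p = 0.459). LOC100316877, a 9-cis-epoxycarotenoid dioxygenase of the step that limits abscisic acid synthesis, had 12.2, 11.5 and 10.4 FPKM in Micro-TOM-EX at 2 h and 7.51, 9.68 and 9.61 at 0 h, against 10.5, 12.5 and 13.5 in Micro-TOM at 2 h and 4.19, 5.6 and 4.83 at 0 h. Its rise passed in Micro-TOM alone, at 0 h every Micro-TOM-EX library was higher, and the log2 response difference was -0.84 ± 0.20 (SE, adjusted p = 0.0353). The log2 changes deposited by the authors were 0.82 in Micro-TOM-EX and 1.69 in Micro-TOM, both with the authors' q-value below 0.05. LOC100316877 was the only call among 10 abscisic acid synthesis and breakdown genes. The 3 pyrroline-5-carboxylate synthases of proline synthesis had log2 response differences of 0.27 ± 0.22 for LOC101250107, -0.17 ± 0.17 for PRO2 and -0.30 ± 0.33 for LOC101244293 (SE, adjusted p = 0.578 to 0.693). The sodium/hydrogen exchanger 8-like gene LOC101263995 had -0.24 ± 0.19 (SE, adjusted p = 0.548). With SEs of this size the design could miss differences of such genes, and a p that misses the threshold does not show that they responded alike. Of 9 late embryogenesis abundant proteins and dehydrins 1 was higher and 1 lower, with a median log2 response difference of -0.78. The higher member, LEA14, averaged 3097 ± 771 FPKM in Micro-TOM-EX at 2 h and 536 ± 57.4 FPKM at 0 h, against 2287 ± 135 FPKM in Micro-TOM at 2 h and 1159 ± 447 FPKM at 0 h (SD, n = 3). For LEA14 the log2 response difference was 1.46 ± 0.36 (SE, adjusted p = 0.0395). Na and K transport held 1 lower of 31, abscisic acid receptors, kinases and factors 1 higher of 21 and proline metabolism 1 higher of 11. The call of LOC100316877 ended without any 1 of MT0r1, MT0r3, MT2r2, MT2r3, EX0r2, EX0r3, EX2r2 or EX2r3 (adjusted p = 0.0602 to 0.105). The call of LEA14 ended without any 1 of MT0r3, MT2r1, MT2r2, MT2r3, EX0r1, EX0r2, EX0r3, EX2r2 or EX2r3 (adjusted p = 0.0601 to 0.105). The call of LEA14 ended with any 1 of no filter on low values, the fit of all 18 libraries or the number 2 libraries of 0 h left out (adjusted p = 0.0566 to 0.14).

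Markers of other cell types and organs were looked at beside these results. Guard cell markers held 1 higher of 15, phloem none of 11, xylem none of 7, glandular trichomes 2 lower of 10, roots 3 higher and 2 lower of 54, flowers and anthers 2 higher and 4 lower of 48 and seeds 3 lower of 11. Of all genes tested, 2.22% were higher and 3.06% lower. With a filter of 5 FPKM, no member was called among the 2 trichome and 4 seed markers then tested. AT2 and LOC101259407, given below, reached the filter of 1 FPKM only through the Micro-TOM libraries of 2 h. The counts are a description. The 4 flower and anther genes became 2 without MT0r3, MT2r1, MT2r3, EX0r1 or EX0r3 and 1 without EX2r3. At 2 h, guard cell markers summed to 156 to 177 FPKM in Micro-TOM-EX, against 136 to 152 in Micro-TOM. Trichome markers summed to 78.5 to 100.5 FPKM in Micro-TOM-EX at 2 h, against 64.1 to 103 in Micro-TOM. Seed markers gave 84.9 to 175 FPKM in Micro-TOM-EX at 2 h, against 106 to 163 in Micro-TOM, and flower markers 1287 to 1449 in Micro-TOM-EX, against 1499.6 to 1657 in Micro-TOM. Of these 4 lists the flower markers, lower in Micro-TOM-EX, and the guard cell markers, higher, had no overlap. The guard cell sums include the 1 called member, at a mean of 23.8 FPKM in Micro-TOM-EX and 1.97 in Micro-TOM at 2 h. The median log2 response difference of the guard cell list was -0.20, so the sums do not show a rise of these markers as a set. The trichome gene AT2, an acylsugar acetyltransferase of glandular hairs, had 0.17, 0.13 and 0.08 FPKM in Micro-TOM-EX at 2 h and 0, 0.09 and 0 at 0 h, against 4.78, 3.56 and 3.2 in Micro-TOM at 2 h and 0, 0 and 0 at 0 h. It was reached in Micro-TOM at 2 h alone, with a log2 response difference of -2.13 ± 0.19 (SE, adjusted p = 0.000246). The oleosin LOC101259407, of the coat of seed oil bodies, had 1.83, 0.36 and 0.7 FPKM in Micro-TOM-EX at 2 h and 0.53, 0.47 and 0.56 at 0 h, against 6.67, 4.5 and 8.36 in Micro-TOM at 2 h and 0.09, 0.31 and 0.65 at 0 h. For LOC101259407 the log2 response difference was -2.16 ± 0.38 (SE, adjusted p = 0.00779). The guard cell marker LOC101246125, an aspartic protease by name, had 20.5, 28.1 and 22.9 FPKM in Micro-TOM-EX at 2 h and 3.25, 6.56 and 3.96 at 0 h, against 1.93, 1.48 and 2.5 in Micro-TOM at 2 h and 1.81, 4.39 and 2.17 at 0 h. Micro-TOM-EX at 2 h was above all other libraries, with a log2 response difference of 2.49 ± 0.38 (SE, adjusted p = 0.00408). The part of these cell types in the response differences was not tested. 

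Called genes often lay next to each other. A neighbouring tested gene was called in the same direction for 35 of the 395 higher genes, 8.86%, where 3.28% of all tested genes had a higher gene beside them, and for 74 of the 546 lower genes, 13.6%, against 4.85%. Of the 57 adjacent pairs, 7 overlap in their coordinates. There were 5 runs of 3. The ethylene response factors LOC101249592, LOC101249870 and LOC104645451 (chromosome 1, 83966908 to 83980923) were all higher, as were the pair of channels LOC101244669 and LOC101250508 with LOC101251382 (chromosome 5, 60444327 to 60475316), a gene named for a chitinase domain. The dioxygenases LOC101244810, LOC101246865 and LOC101259885 (chromosome 9, 69462531 to 69468676) were higher too: LOC101246865, an ACC oxidase homolog, had 12.2, 22.2 and 18.2 FPKM in Micro-TOM-EX at 2 h and 1.22, 1.41 and 1.41 at 0 h, against 1.19, 2.27 and 1.03 in Micro-TOM at 2 h and 0.26, 0.25 and 0.47 at 0 h. For LOC101246865 the log2 response difference was 2.06 ± 0.31 (SE, adjusted p = 0.00382). The glucosyltransferases LOC101250740, LOC101251036 and LOC101250450 (chromosome 9, 71561121 to 71570872) were lower. LOC101251036 had 11.4, 10.3 and 9.01 FPKM in Micro-TOM-EX at 2 h and 150.1, 119.9 and 145 at 0 h, against 32.4, 32.2 and 39.6 in Micro-TOM at 2 h and 83, 89 and 88.1 at 0 h. For LOC101251036 the log2 response difference was -2.33 ± 0.18 (SE, adjusted p = 9.06e-05). LOC101250450 averaged 22.8 ± 3.29 FPKM in Micro-TOM-EX at 2 h and 166 ± 22.3 FPKM at 0 h, against 115 ± 27.6 FPKM in Micro-TOM at 2 h and 172 ± 10.7 FPKM at 0 h (SD, n = 3). For LOC101250450 the log2 response difference was -2.21 ± 0.24 (SE, adjusted p = 0.000659). Both fell in each material, further in Micro-TOM-EX, and reads of genes close in sequence may have been split between them. A further gene named for crocetin glucosyltransferase, LOC101248405 on chromosome 7, was listed at 0 in all 9 Micro-TOM-EX libraries of the 3 hours and had 0.32, 0.36 and 0.14 FPKM in Micro-TOM at 2 h and 6.74, 3.84 and 5.3 at 0 h, so that its response difference of 2.28 ± 0.23 (SE) is a fall in Micro-TOM of a gene without a reading in Micro-TOM-EX. The fifth run, on chromosome 12 from 47229380 to 47256479, joins LOC101265408, uncharacterized, with 2 new gene models, all lower. The call of LOC101259885 ended without any 1 of MT0r1, MT0r2, MT0r3, MT2r1, MT2r2, MT2r3, EX0r2, EX0r3, EX2r2 or EX2r3 (adjusted p = 0.065 to 0.112). The call of LOC101251382 ended without any 1 of MT0r1, MT0r3, MT2r1, MT2r2, EX0r1, EX0r2, EX0r3 or EX2r3 (adjusted p = 0.0584 to 0.0982). The call of LOC101265408 ended without any 1 of MT0r1, MT0r3, MT2r1, MT2r2, EX0r2, EX0r3, EX2r2 or EX2r3 (adjusted p = 0.0539 to 0.0814). The calls of LOC101246865 and LOC101259885 ended with a pseudocount of 0.1 (adjusted p = 0.0624 to 0.494). The call of LOC101259885 ended with either the replicate block or the replicate block within each hour (adjusted p = 0.0607 to 0.0686). Its log2 change deposited by the authors was 3.53 in Micro-TOM-EX and 3.96 in Micro-TOM, the other order. The calls of LOC101259885, LOC101251382 and LOC101265408 ended with the number 2 libraries of 0 h left out (adjusted p = 0.0622 to 0.0876). The genes of the runs were chosen after their values were seen. By chromosome, 3.37% (chromosome 11) to 6.98% (chromosome 12) of tested genes were called.

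At 8 h few of these genes still differed between the materials. In a fit of all 18 libraries, 1.42% of the tested genes differed between Micro-TOM-EX and Micro-TOM at 8 h, 0.847% higher and 0.572% lower in Micro-TOM-EX. Of the 395 genes with a higher 2 h response 29 were higher at 8 h and 6 lower, and of the 546 with a lower 2 h response 20 were lower at 8 h and 4 higher. LOC101258237 averaged 14.5 ± 6.91 FPKM in Micro-TOM-EX and 0.08 ± 0.0346 FPKM in Micro-TOM at 8 h, and LOC101268453 20.9 ± 3.42 FPKM in Micro-TOM-EX and 2.67 ± 0.533 FPKM in Micro-TOM at 8 h (SD, n = 3), so that the STAY-GREEN-like and the cellulose synthase-like gene kept their order. LOC101248690 averaged 61 ± 21.9 FPKM in Micro-TOM-EX and 154 ± 39.2 FPKM in Micro-TOM at 8 h (SD, n = 3). GolS2 averaged 90.4 ± 28.7 FPKM in Micro-TOM-EX and 71.7 ± 12.8 FPKM in Micro-TOM at 8 h, BAM1 688 ± 141 FPKM in Micro-TOM-EX and 545 ± 73.2 FPKM in Micro-TOM at 8 h and opr3 19.4 ± 4.99 FPKM in Micro-TOM-EX and 7.84 ± 2.53 FPKM in Micro-TOM at 8 h (SD, n = 3).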

How the data were processed

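A single deposited table lists 23808 genes, including 761 new gene models. It gives FPKM values rounded to 2 decimals and, for pairs of groups, the authors' log2 changes, p-values and q-values. Per the submitters' processing notes, the tools were RSEM 1.2.12, DESeq2 1.4.5, HISAT2 2.0.4 and Bowtie2 2.2.5; what each did is not stated. The genome build, the annotation and the strand setting of the counting are not given in the sources used here, and positions are those of the deposited table. The 18 duplicate FPKM columns were checked to be identical and were not used. The table holds no counts, so no count test was run. Libraries were prepared from Trizol-extracted leaf RNA for BGI500 sequencing, per the labels.

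Groups were taken from the labels. The test was limma 3.58.1 (R 4.3.3), applied to log2(FPKM + 1) of the 17826 genes that reached 1 FPKM in 3 or more of the 12 libraries of 0 h and 2 h. The model had 1 mean per group and 8 residual degrees of freedom, with variances moderated along the mean level. The contrast was the 2 h change in Micro-TOM-EX minus that in Micro-TOM, with p-values adjusted by Benjamini and Hochberg over all tested genes and 0.05 as the threshold. The changes within each material and the differences at each hour came from the same fit, and the 8 h differences from a fit of all 18 libraries. The procedure was tested on simulated data. Relative depth came from the spacing of low FPKM values in 6 to 38 genes per library.

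Named genes are the 12 largest higher and 12 largest lower differences among called genes with a group mean of at least 5 FPKM and a descriptive name, up to 3 called members of smallest adjusted p of each list described, and core salt genes; genes outside this rule are marked. The comparison, its members and the lists were chosen with earlier results of these data known. Pairing by library number was looked at through the deviations from the group means of same-numbered libraries. Between the materials they correlated at 0.48, 0.44 and 0.13 at 0 h and at -0.19, 0.16 and -0.22 at 2 h. Between hours they correlated at -0.02 to 0.16. Libraries of unlike numbers were not correlated in this way, and the number 2 libraries stood apart in both 0 h groups, so pairing at 0 h was not shown. The main fit has no block. The alternatives were other filters, a pseudocount of 0.1, median-ratio scaling, a fit of all 18 libraries, replicate blocks, no mean trend, a 2-fold minimum and single libraries left out. A replicate block at 0 h only, the rescaled changes within each material and the sign of the authors' deposited log2 changes were added after the data were seen. Promoter and protein sequences were not used here.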

Additional observations from a re-analysis of the deposited data

Results flagged for a closer look

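The comparison is itself a difference between 2 groups under the same contrast, tested by the interaction term, and the following results are given again because that test passed. The 2 h response differed between Micro-TOM-EX and Micro-TOM in 941 genes, 395 of them higher and 546 lower in Micro-TOM-EX. In 83 genes 1 material rose and the other fell, each change passing by itself. Single genes with the clearest difference were the STAY-GREEN-like LOC101258237, at a log2 response difference of 4.62, and the cellulose synthase-like LOC101268453, at 4.14, where the 2 h libraries of Micro-TOM-EX lay far above those of Micro-TOM. On the other side were the receptor kinase gene LOC101268564, at -3.33, and the glucosyltransferase-like LOC101250740, at -2.89, where they lay far below. For LOC101258237 the log2 changes deposited by the authors lay closer together, at 5.38 in Micro-TOM-EX and 4.74 in Micro-TOM. With 3 libraries per group, no test for an outlying sample was made.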

How the results depend on the processing

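The 941 calls (395 higher, 546 lower) became 1025 with no filter, 694 with a pseudocount of 0.1, 1007 after median-ratio scaling (median log2 -0.05), 1192 in the fit of 18 libraries, 908 without the mean trend and 998 without the number 2 libraries of 0 h. With no filter the share of lower calls was 66.8% (340 higher, 685 lower), against 58.0%. A filter of 5 FPKM, which tests fewer and more abundant genes, gave 619, 314 higher and 305 lower, 618 of them among the 941. With single libraries left out, the calls numbered 447 to 1160, the higher ones 167 to 465 and the lower ones 280 to 695. The higher calls alone fell to 255 without MT2r2 and 241 without EX0r1; the cause was not tested. The replicate block gave 1073 calls (471 higher, 602 lower), 853 of them shared with the fit without a block, and the block within each hour gave 1169, 805 shared. Whether the numbers pair the libraries at 0 h was not shown. The replicate block at 0 h only, added after the data were seen, gave 1322 calls (600 higher, 722 lower), 915 shared, with every one of the 91 named calls kept. Among the 97 genes named, no alternative fit reversed a direction, and a call ended for 15 with a pseudocount of 0.1. A call also ended in 110 of the 1092 fits of the 91 called ones with 1 library left out. Of these 91, 73 kept the call without each single library and 64 under every alternative. The sign of the authors' deposited log2 changes at 2 h, Micro-TOM-EX minus Micro-TOM, was the same for 930 of 935 called genes. LOC101266638 and LOC101259885, called higher, had the other sign. Their deposited changes were 4.79 and 3.53 in Micro-TOM-EX, against 7.06 and 3.96 in Micro-TOM. Depth is known only relatively, and levels under 1 FPKM rest on few reads.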
